A study of Mus musculus with 8 samples.

Results

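Transcripts of a 100-gene panel were mapped as single molecules in brain hemispheres carrying GL261 glioma, and the 2 sections from mice given anti-PD1 alone were set against the 2 sections from mice given PBS. The 4 sections were chosen by their sample titles out of 8 in the series. The other 4 sections, from mice given CpG-STAT3ASO with or without anti-PD1, were used only to estimate the spread in the fit of whole sections. GL261 is a mouse glioma cell line. All mice had been implanted with it, were treated 4 times by injection into the brain and were killed at day 21, so the PBS group carries the same tumour and the same injections. The labels used here give no strain, age or sex, and do not say whether the 2 sections of a group came from separate animals. The p-values therefore measure only the spread between these sections.

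PD-1, encoded by Pdcd1, is an inhibitory receptor that activated T cells display. It is engaged by PD-L1 (Cd274) and PD-L2 (Pdcd1lg2) on tumour cells and on macrophages and dendritic cells, and the engaged receptor damps signalling from the T cell receptor. An antibody that blocks PD-1 removes this brake. Glioma is also rich in myeloid cells, some of which suppress T cells, among other ways by breaking down arginine.

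The sections held 4195896 and 6995401 molecules with PBS and 6652167 and 6369338 with anti-PD1. Of these, 0.106 to 0.152% carried one of 28 names that start with FP, read here as false-positive codes and left out. For 83 of the 100 genes the molecules exceeded the 90th percentile of these codes in all 4 sections. Another 8, among them Cd3d and Klrd1, did so in some, and 9, among them Ifnb1 and Xcr1, did so in none. The panel held 3 of 4 T cell markers sought, 2 of 3 microglial ones, all 4 of the macrophage and all 4 of the dendritic cell ones. It held 0 of the markers sought for endothelium, neurons, oligodendrocytes and astrocytes, so the brain label was not checked against them.

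Each section was cut into square bins of 360 pixels, and a bin counted as tissue from 20 molecules. A bin holds several cells, and a higher or lower value in it can come from the number of cells of a type or from the RNA in each cell, which cannot be told apart. Bins with 100 or more molecules of Mki67 and Birc5, a marker of cycling cells and the mitotic survival factor survivin, are called dense. They numbered 714 of 2220 tissue bins in PBS section 1 and 965 of 2155 in PBS section 2. The anti-PD1 sections held 827 of 2225 and 1090 of 2358. That was 32.2 and 44.8% of the tissue with PBS and 37.2 and 46.2% with anti-PD1. The groups interleaved, with a difference of 3.23 percentage points (exact permutation test, two-sided, p = 0.667) that became -3.08 without PBS section 1 and -1.30 without anti-PD1 section 2. With 2 sections against 2 the smallest p this test can give is 0.333. Over the 30 section-wide measures compared by it, 18 reached that value, and the Benjamini-Hochberg adjusted p was then 0.556.

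**Figure D1:**
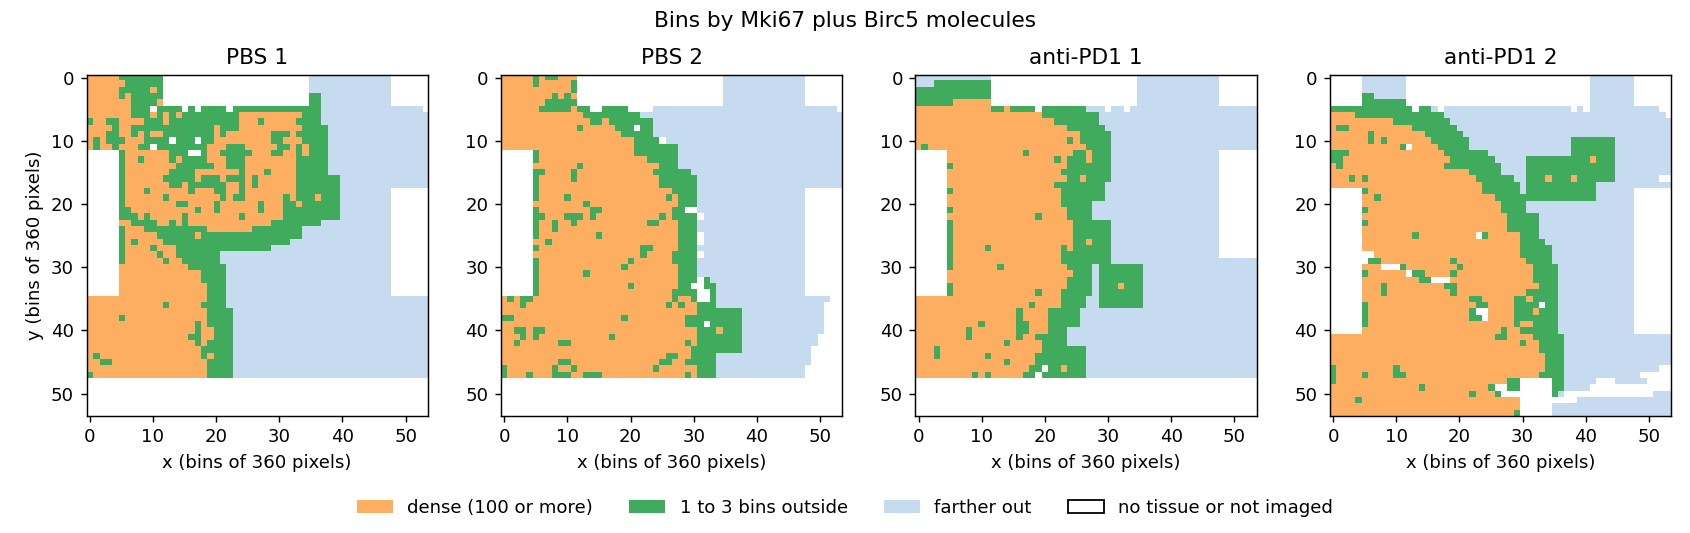
Map of the 4 sections in bins of 360 pixels (x and y axes), with dense bins in orange, tissue 1 to 3 bins outside them in green, tissue farther out in blue and bins without tissue or not imaged in white. The dense territory reaches the edge of the imaged field in every section; in PBS 1 it is split into 10 patches, the largest with 51.3% of the dense bins, while the largest patch holds 99.5 to 99.9% in the other sections.

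The shape of the territory was also compared. Dense bins at a distance of 4 or more bins from the nearest tissue bin that was not dense are called the core. Empty bins and the image edge did not count as a border, so a dense bin at the edge of the image could be core. The core made up 10.8 and 9.33% of the dense bins in the PBS sections and 19.1 and 18.6% in the anti-PD1 sections. Of the tissue 1 to 3 bins outside, called the margin, 61.4 and 44.4% with PBS and 27.8 and 23.1% with anti-PD1 lay in gaps of the territory or at the image edge, with no tissue farther out within 3 bins. Neither measure overlapped between groups (exact permutation p = 0.333 for each, the smallest possible). Gene molecules per dense bin were 4366 and 6161 with PBS and 6590 and 5053 with anti-PD1, with overlap. Values below are therefore given as the share of the compartment's gene molecules, in molecules per 1000000 (CPM), and, where it matters, as molecules per 100 bins (a density).

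In the dense bins, Arg1 of suppressive macrophages stood at 0.318 times its PBS mean in the anti-PD1 sections, and Spp1 and the perforin gene Prf1 were also lower in both. Cd8a of cytotoxic T cells, the monocyte receptor gene Ccr2, Itgax and Tmem119 were higher in both, while Pdcd1 and Cd274 overlapped. Of these differences none passed the test over all genes, and Ifnb1 was the 1 gene that did.

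By share no gene passed there with limma (98 tested, 0 at adjusted p under 0.05, 4 at unadjusted p under 0.05, and 0 with voom). By density only Ifnb1 passed, which is 1.02% of the genes. In a wider count of genes whose groups did not overlap, 13.3% of the genes were higher and 8.16% lower with anti-PD1 by share, and 25.5% were higher and 4.08% lower by density. On both scales alike 12.2% were higher and 4.08% lower, or 16.3% either way. With 2 sections against 2, a gene unrelated to the groups would separate fully on a scale, one way or the other, with a probability of 0.333. Lack of overlap alone therefore does not show a difference, here or in the other compartments. The median log2 difference over all 98 genes was 0.13 by share and 0.29 by density. These differences were small against the sections themselves. The median absolute difference between the groups was 0.31 on the log2 scale, while the median gap between the PBS sections was 0.60 and between the anti-PD1 sections 0.61. For 14 of 98 genes the difference between groups exceeded both gaps, and among these were Arg1, Ccl3, Ccl4, Itgax, Prf1, Rrm2 and Ifnb1.

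**Figure D2:**
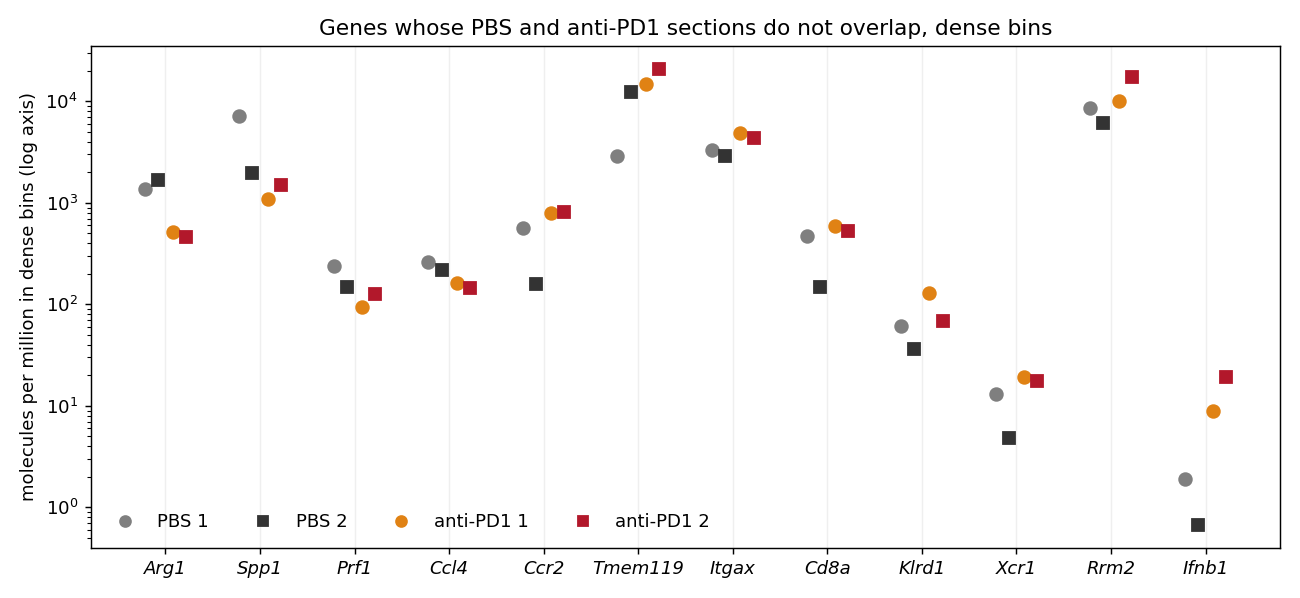
CPM in dense bins (log axis) for 12 genes whose PBS sections (grey, black) and anti-PD1 sections (orange, red) did not overlap; each point is 1 section. Arg1 stood at 1382 and 1695 with PBS against 521 and 458 with anti-PD1, and Ifnb1 at 1.93 and 0.673 against 8.99 and 19.3.

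Pdcd1, the transcript of the receptor that the antibody binds, stood at 398 and 316 CPM in dense bins with PBS and at 328 and 246 with anti-PD1. The sections overlapped, and the log2 difference was -0.32 (SE 0.616, limma, adjusted p = 0.985). Cd274, which encodes the main ligand, stood at 12820 and 14060 with PBS and at 18170 and 10800 with anti-PD1, so the anti-PD1 sections lay on either side of the PBS pair (log2 0.06, SE 0.495). Pdcd1lg2 stood at 179 and 428 with PBS and at 171 and 82.3 with anti-PD1, lower without overlap by share but not by density, with a log2 difference of -1.21 (SE 0.722, limma, adjusted p = 0.985). Its sections spread widely, and 171 lay close to 179.

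Of the 9 measured checkpoint genes, Pdcd1lg2 was the 1 whose sections did not overlap by share in dense bins, and the list's median log2 difference was -0.12 against 0.13 over all genes. Lag3, a further inhibitory receptor of T cells, stood at 609 and 208 CPM with PBS and at 265 and 323 with anti-PD1. Its share farther out was higher in every section, at 3364 and 5139 with PBS and 1715 and 2572 with anti-PD1. Lag3 is therefore not read as a T cell marker here. Havcr2, which encodes TIM-3 and is made by myeloid cells as well as T cells, stood at 1269 and 673 with PBS and at 1444 and 1060 with anti-PD1. Neither Lag3 nor Havcr2 separated the groups by share in dense bins. Ctla4, the checkpoint receptor of regulatory and activated T cells, stood at 413 and 240 with PBS, and at 419 and 104 in anti-PD1 sections 1 and 2, which lay further apart than the PBS pair.

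Cd8a, a chain of the CD8 coreceptor of cytotoxic T cells, numbered 1461 and 890 molecules in dense bins in the PBS sections and 3207 and 2942 in the anti-PD1 sections. That was 469 and 150 CPM with PBS and 588 and 534 with anti-PD1. PBS section 2 was low, and PBS section 1 was close to the anti-PD1 pair, though the groups did not overlap. The log2 difference was 1.08 (SE 0.692, 95% interval -0.44 to 2.60, limma, adjusted p = 0.985), and without PBS section 2 it was 0.26. Dense bins with at least 5 Cd8a molecules made up 14.0 and 6.74% with PBS and 27.1 and 19.8% with anti-PD1.

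The place of Cd8a also differed. Of all Cd8a molecules in tissue, 68.3 and 57.3% lay inside dense bins in the PBS sections and 79.5 and 90.3% in the anti-PD1 sections, a difference of 22.1 percentage points with no overlap (exact permutation p = 0.333, the smallest possible). Cd3d, a chain of the T cell receptor complex, had 76.9 and 68.0% of its molecules inside with PBS and 84.7 and 89.3% with anti-PD1 (exact permutation p = 0.333). Gzmb, which encodes the cytotoxic protease granzyme B, had 77.5 and 80.8% inside with PBS and 89.7 and 92.8% with anti-PD1 (exact permutation p = 0.333). All 3 genes had a larger part of their molecules inside the territory in both anti-PD1 sections. So did Cxcl9, Cxcl10 and Tmem119, or 6 of the 10 genes for which this was measured, and 34.4% of all genes tested had a higher ratio of dense bins to margin without overlap, so the placement was not particular to T cell genes. The level of Cd3d in dense bins did not follow, at 51.3 and 53.2 CPM with PBS and 88.4 and 36.3 with anti-PD1, and its molecules exceeded that percentile of the false-positive codes in only 1 section of 4.

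Of the 11 T cell genes tested in dense bins, Cd8a was the 1 whose sections did not overlap, and the list's median was 0.12. Over all 98 genes 13.3% were higher and 8.16% lower without overlap, so 1 of 11 is near the share among all genes. Foxp3, the lineage factor of regulatory T cells, stood at 190 and 71.8 CPM with PBS and at 203 and 105 with anti-PD1. Ifng, the main T cell and NK cell interferon, stood at 108 and 255 with PBS and at 297 and 110 with anti-PD1. Both overlapped. Ikzf2, which encodes the regulatory T cell factor Helios, stood at 2280 and 1078 with PBS and at 1328 and 1388 with anti-PD1, between the PBS sections. Farther out its share was higher in every section, at 4050 and 4725 with PBS and 3155 and 4486 with anti-PD1. Ikzf2 is therefore not read as a T cell marker here. The list also holds Cd4, placed mostly outside dense bins, and S1pr1, less dense there than in the margin in all 4 sections. The list's median is therefore not a measure of T cells alone.

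Cytotoxic genes did not follow Cd8a. Prf1, which encodes the pore-forming protein perforin, stood at 240 and 148 CPM in dense bins with PBS and at 94.7 and 128 with anti-PD1, lower without overlap (log2 -0.77, SE 0.667, limma, adjusted p = 0.985). Gzmb stood at 413 and 426 with PBS and at 508 and 128 with anti-PD1. The anti-PD1 sections differed 3.97-fold from each other and lay on either side of the PBS pair. Gzma, which encodes granzyme A, stood at 246 and 163 with PBS and at 351 and 157 with anti-PD1, also with overlap. Klrd1, which encodes the CD94 receptor of NK and some CD8 T cells, was higher without overlap, at 60.6 and 36.0 with PBS and 129 and 68.1 with anti-PD1, and over whole sections it exceeded these codes' 90th percentile in 2 of 4 sections. Over the 8 cytotoxic and NK genes, 1 was higher and 1 lower without overlap, near the same shares of all genes, and the median was 0.07.

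Set against Cd8a within the same bins, Prf1 numbered 0.513 and 0.985 molecules per Cd8a molecule with PBS and 0.161 and 0.239 with anti-PD1. Lag3 numbered 1.30 and 1.39 per Cd8a molecule with PBS and 0.451 and 0.604 with anti-PD1. Pdcd1 numbered 0.849 and 2.11 with PBS and 0.558 and 0.460 with anti-PD1. Gzmb numbered 0.880 and 2.85 with PBS and 0.863 and 0.240 with anti-PD1, with 0.863 close to 0.880. These 4 of the 8 ratios compared did not overlap (exact permutation p = 0.333 for each), and all share Cd8a as the divisor. The ratios for Gzma, Fasl, Nkg7 and Ifng overlapped, with Ifng at 0.230 and 1.71 with PBS and 0.504 and 0.205 with anti-PD1. NK cells and other cells also make some of these transcripts, and which cells made them was not tested. Lag3, as given above, is not read as a T cell marker.

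Dense bins with at least 5 Cd8a molecules were richer in Gzmb, Pdcd1 and Prf1 than the other dense bins in all 4 sections. Gzmb molecules per bin there were 6.01 and 6.49 times those in the other dense bins in the PBS sections and 6.06 and 4.70 times in the anti-PD1 sections. Pdcd1 was 3.53 and 2.14 times as dense there with PBS and 3.32 and 7.50 times with anti-PD1. Prf1 was 2.15 and 1.80 times as dense with PBS, and 2.11 and 8.49 times in anti-PD1 sections 1 and 2. The 2 highest of these ratios, 7.50 and 8.49, were both in anti-PD1 section 2. Arg1 was at 0.794 and 0.715 times the other bins with PBS and at 0.944 and 1.15 times with anti-PD1.

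Arg1, which encodes arginase-1 and marks suppressive macrophages, was the gene with the largest downward difference by share in dense bins. It numbered 4308 and 10075 molecules with PBS and 2839 and 2524 with anti-PD1, or 1382 and 1695 CPM against 521 and 458. Both anti-PD1 sections lay below both PBS sections, and each pair was close. The log2 difference was -1.65 by share (SE 0.564, 95% interval -2.89 to -0.40, limma, unadjusted p = 0.0140, adjusted p = 0.684) and -1.49 by density, so the difference did not pass the test over all genes. Dense bins with at least 10 Arg1 molecules made up 18.1 and 35.1% with PBS and 8.22 and 3.76% with anti-PD1, again without overlap. Leaving out any 1 of the 4 sections gave -1.50 to -1.79 by share.

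Arg1 also varied with distance. In every section its share was higher in the outer dense bins than in the core, and highest of all zones in the first bin outside. With PBS these values were 847, 1469 and 1852 CPM in section 1 and 945, 1779 and 2370 in section 2. With anti-PD1 they were 271, 587 and 981 in section 1 and 270, 509 and 1172 in section 2. Farther out Arg1 stood at 192 and 187 with PBS and at 216 and 167 with anti-PD1, with overlap and a log2 difference of 0.00 (SE 0.340). By density the first bin outside was not the highest zone. Arg1 molecules per 100 bins in the core, the outer dense bins and the first bin outside were 479, 618 and 178 in PBS section 1 and 631, 1087 and 297 in PBS section 2. They were 195, 378 and 152 in anti-PD1 section 1 and 156, 249 and 96.3 in anti-PD1 section 2, so by density Arg1 was highest in the outer dense bins in all 4 sections. On both scales the groups were apart in the core, the outer dense bins and the first bin outside, and not farther out.

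**Figure D3:**
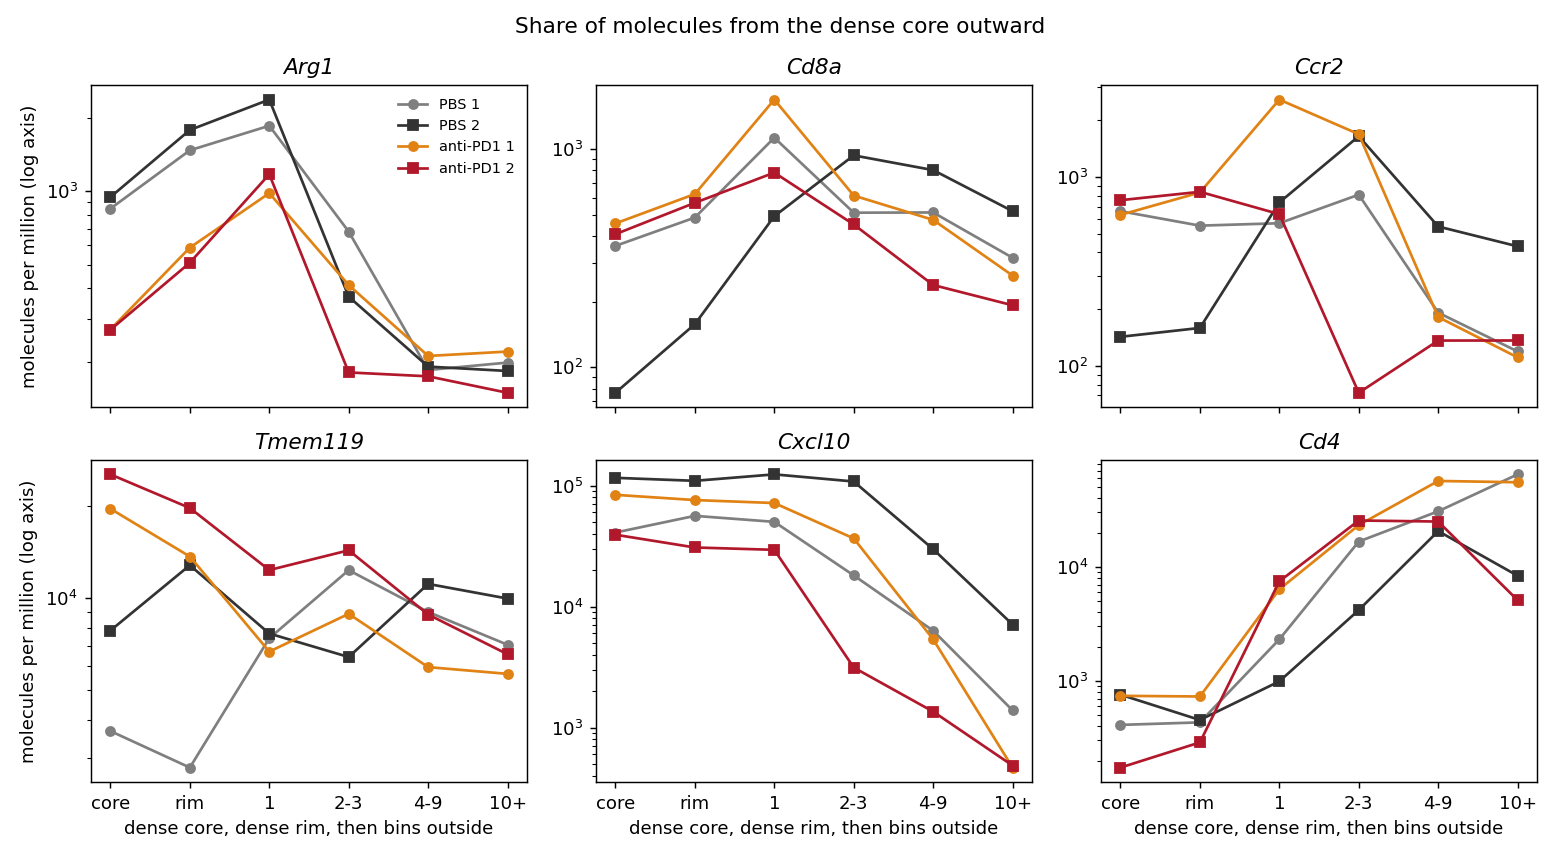
Share of 6 genes (CPM, log axis, a different range in each panel) by zone (x axis: dense core, outer dense bins or rim, then tissue 1, 2 to 3, 4 to 9 and at least 10 bins away), with 1 line per section. Arg1 of both PBS sections lies above both anti-PD1 sections from the core to the first bin outside; Cxcl10 is highest in PBS 2 in every zone, and Cd4 is higher 4 to 9 bins outside than in the dense bins in all 4 sections.

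Spp1, which encodes osteopontin, a secreted product of glioma-associated macrophages, stood at 7247 and 1957 CPM in dense bins with PBS and at 1098 and 1492 with anti-PD1. PBS section 1 stood far above the rest, and the groups did not overlap. The log2 difference was -1.56 (SE 0.665, limma, adjusted p = 0.958), it was -0.61 without PBS section 1, and Spp1 was called without PBS section 2 (-2.5). Dense bins with at least 50 Spp1 molecules made up 14.6 and 3.73% with PBS and 1.21 and 1.47% with anti-PD1. In the first bin outside, PBS section 1 reached 25130 CPM, against 1634 in PBS section 2 and 1231 and 1679 with anti-PD1.

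Other genes of the suppressive myeloid list did not go the same way. Mrc1, which encodes the mannose receptor CD206, stood at 568 and 506 with PBS and at 617 and 645 with anti-PD1, slightly higher without overlap (log2 0.24, SE 0.578). Gpnmb, a glycoprotein of lipid-laden macrophages that some tumour cells also make, stood at 165000 and 61600 with PBS and at 94460 and 135600 with anti-PD1, inside the PBS range. Of the 9 measured members, Arg1 and Spp1 were lower and Mrc1 higher without overlap, 6 overlapped, and the median was -0.01 against 0.13 over all genes.

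Ccr2, the chemokine receptor by which monocytes enter tissue, numbered 1775 and 938 molecules in dense bins in the PBS sections and 4302 and 4518 in the anti-PD1 sections. Its share was 569 and 158 CPM with PBS and 789 and 820 with anti-PD1. The anti-PD1 pair was close and above both PBS sections, of which section 2 was low. The log2 difference was 1.42 (SE 0.705, 95% interval -0.13 to 2.97, limma, adjusted p = 0.985), and 0.50 without PBS section 2. At least 5 Ccr2 molecules were found in 17.2 and 3.42% of dense bins with PBS and in 44.5 and 36.7% with anti-PD1.

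The macrophage genes Adgre1 (F4/80) and Cd68 did not follow Ccr2. Adgre1 stood at 810 and 375 CPM with PBS and at 585 and 412 with anti-PD1, and Cd68, a lysosomal protein of phagocytes, at 4427 and 1302 with PBS and 1763 and 2429 with anti-PD1. Both anti-PD1 pairs lay inside the PBS range. Of the 8 measured macrophage genes, Ccr2 and Mrc1 were higher without overlap and 6 overlapped (median 0.03).

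Itgax, which encodes the dendritic cell and macrophage integrin CD11c, stood at 3337 and 2896 CPM in dense bins with PBS and at 4932 and 4329 with anti-PD1. The gap between the groups was wider than the gap within either pair (log2 0.57, SE 0.506, limma, adjusted p = 0.985). At least 20 Itgax molecules were found in 25.5 and 40.0% of dense bins with PBS and in 73.3 and 48.7% with anti-PD1. Batf3, the factor that conventional type 1 dendritic cells need, stood the other way, at 1396 and 1266 with PBS and 1149 and 933 with anti-PD1 (log2 -0.36, SE 0.550), and by density it overlapped. Xcr1, a receptor of the same cells, numbered 41 and 29 molecules with PBS and 105 and 96 with anti-PD1, too few to stand above the false-positive codes. Over the 5 dendritic cell genes, 2 were higher and 1 was lower without overlap, against 13.3 and 8.16% of all genes, and the median was 0.19 against 0.13.

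Tmem119, a gene used to mark resident microglia, had the second largest upward difference in dense bins after Ifnb1. It stood at 2913 and 12330 CPM with PBS and at 14950 and 20980 with anti-PD1. PBS section 1 stood apart, and PBS section 2 lay near anti-PD1 section 1. The log2 difference was 1.56 by share (SE 0.658, 95% interval 0.12 to 3.01, limma, unadjusted p = 0.0367, adjusted p = 0.958), 0.52 without PBS section 1 and 2.60 without PBS section 2, where it was called, as it was by density. The position of Tmem119 set PBS section 1 apart as well: 50.02% of its molecules lay inside dense bins there, against 88.2% in PBS section 2 and 91.3 and 93.0% with anti-PD1. Csf1r, the other microglial marker on the panel, which macrophages also express, stood at 7212 and 3698 in dense bins with PBS and at 7020 and 4581 with anti-PD1, with overlap, so Tmem119 and Csf1r did not move together. Nor were they placed alike. Farther out Csf1r was higher than in dense bins in every section, at 34430 and 37000 with PBS and 27200 and 32420 with anti-PD1. Tmem119 stood there at 7983 and 10470 with PBS and at 5784 and 8162 with anti-PD1, below its dense bins except in PBS section 1. Tmem119 is therefore not read as a microglial marker here, and which cells made it was not tested.

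The chemokines Ccl3 and Ccl4, which myeloid cells and activated T cells release, were lower with anti-PD1. Ccl3 stood at 453 and 467 CPM in dense bins with PBS and at 310 and 314 with anti-PD1, with close pairs that did not overlap by share (log2 -0.56, SE 0.597, limma, adjusted p = 0.985) but did by density. Ccl4 stood at 260 and 219 with PBS and at 164 and 147 with anti-PD1, without overlap on either scale (log2 -0.62, SE 0.633). Nfkbia, a feedback inhibitor of NF-kB, was also lower by share, at 20360 and 23410 with PBS and 14760 and 17670 with anti-PD1, and overlapped by density. None of the 3 passed the test.

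Chemokines that recruit activated T cells were not apart in dense bins. Cxcl9 stood at 1163 and 2825 CPM with PBS and at 3436 and 1071 with anti-PD1. Cxcl10, a strongly interferon-induced chemokine, stood at 54110 and 110200 with PBS and at 77630 and 32610 with anti-PD1. Ccl5 stood at 2045 and 2921 with PBS and at 2963 and 924 with anti-PD1. For all 3 genes anti-PD1 section 2 was the lowest section and the groups overlapped. Of the 8 chemokine and receptor genes, Ccr2 was higher and Ccl3 and Ccl4 were lower without overlap.

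Ifnb1, which encodes interferon beta, was the 1 gene past the threshold. It numbered 6 and 4 molecules in dense bins in the PBS sections and 49 and 106 in the anti-PD1 sections, which is 0.840 and 0.414 molecules per 100 bins against 5.93 and 9.73. It rose with anti-PD1 by a log2 difference of 2.42 by density (SE 0.487, limma, adjusted p = 0.0276). By share the difference was 2.69 (SE 0.855, limma, adjusted p = 0.684). Over whole sections it numbered 7 and 7 molecules with PBS, against 60 and 109. It rose there by 2.54 by share (SE 0.586, limma, adjusted p = 0.0426), the 1 gene called, or 1% of the 100 tested (3 at unadjusted p under 0.05, 1 called with voom). By density over whole sections it was 1.79 (limma, adjusted p = 0.0782), and 0 genes passed (2 at unadjusted p under 0.05). Over whole sections 12% of genes were higher and 11% lower without overlap by share, and 27% higher and 5% lower by density. On both scales alike 11% were higher and 5% lower, or 16% either way, and the median log2 difference was 0.05 by share.

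The Ifnb1 molecules were few and clustered. Its 60 and 109 molecules lay below the false-positive codes of the same sections, whose 90th percentile was 405 and 313. In anti-PD1 section 2, 65 of 109 fell into a single bin and 72 lay within 100 pixels of a single point. In anti-PD1 section 1, 11 of 60 fell into a single bin and 15 lay within 100 pixels of a single point. Without the richest bin of each section, 49 and 44 molecules remained with anti-PD1 and 5 and 6 with PBS. The whole-section call was then lost (log2 2.01), while the call by density in dense bins remained (1.85). The whole-section call was also lost without PBS section 2, where Spp1 was called instead, and without either anti-PD1 section, and the dense-bin call without either anti-PD1 section, with log2 differences of 2.12 to 2.97 and of 2.10 and 2.73. With a pseudocount of 10, a mean of at least 50 molecules (which leaves Ifnb1 out) or no trend, both calls were lost, and the whole-section call also with the 4 sections alone. The crossed replicate block ended both as well. Bins of 180 pixels or dense bins from 200 molecules ended the dense-bin call (1.42 and 2.44). The false-positive codes give a scale for both features. Over 68 pairs of code and section with at least 30 molecules, a median of 2.18% and at most 24.5% of molecules fell into a single bin. That highest value was code FP 108 in anti-PD1 section 2, with 61 of 249 molecules in a single bin. Code FP 71 in that section had 8 of 36 (22.2%). A false-positive code thus formed a clump of similar size in the section where 65 Ifnb1 molecules shared a bin. Whether these bins coincide was not tested. The largest fold of any code with anti-PD1 was 2.71 against 9.79 for Ifnb1.

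Around these Ifnb1 spots Cxcl10 was dense. In anti-PD1 section 1, Cxcl10 made up 26.8% of the 1146 molecules within 100 pixels of the spot (95% exact binomial interval 24.2 to 29.5%), against 7.76% over all dense bins of that section. In anti-PD1 section 2 it made up 16.7% of 1733 molecules (15.0 to 18.6%), against 3.26%. Cxcl9, also induced by interferon, numbered only 1 and 5 molecules around the spots, or 0.0873 and 0.289% against 0.344 and 0.107% over dense bins. These are 2 places, chosen by their Ifnb1 molecules, and the intervals cover counting error only. The gene was 1 of 10 looked at and was chosen after its values were seen.

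Mki67 and Birc5 defined the dense bins, so their levels there are a description. Mki67 stood at 62710 and 48310 CPM with PBS and at 58220 and 91670 with anti-PD1. Rrm2, which encodes a subunit of ribonucleotide reductase and is made by cycling cells, was not part of the definition. It stood at 8700 and 6160 with PBS and at 10100 and 17460 with anti-PD1, higher without overlap (log2 0.86, SE 0.515, limma, adjusted p = 0.985). By share anti-PD1 section 2 was the highest section for all 3 genes, and section 1 lay inside the PBS range for Mki67 and Birc5. By density all 3 were higher without overlap, as were 25.5% of all genes. Birc5 then stood at 8656 and 9427 molecules per 100 bins with PBS and at 10940 and 14010 with anti-PD1. Stat3, a transcription factor of cytokine signalling, stood at 59800 and 63550 with PBS and at 57810 and 70350 with anti-PD1, spanning the PBS pair.

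**Figure D4:**
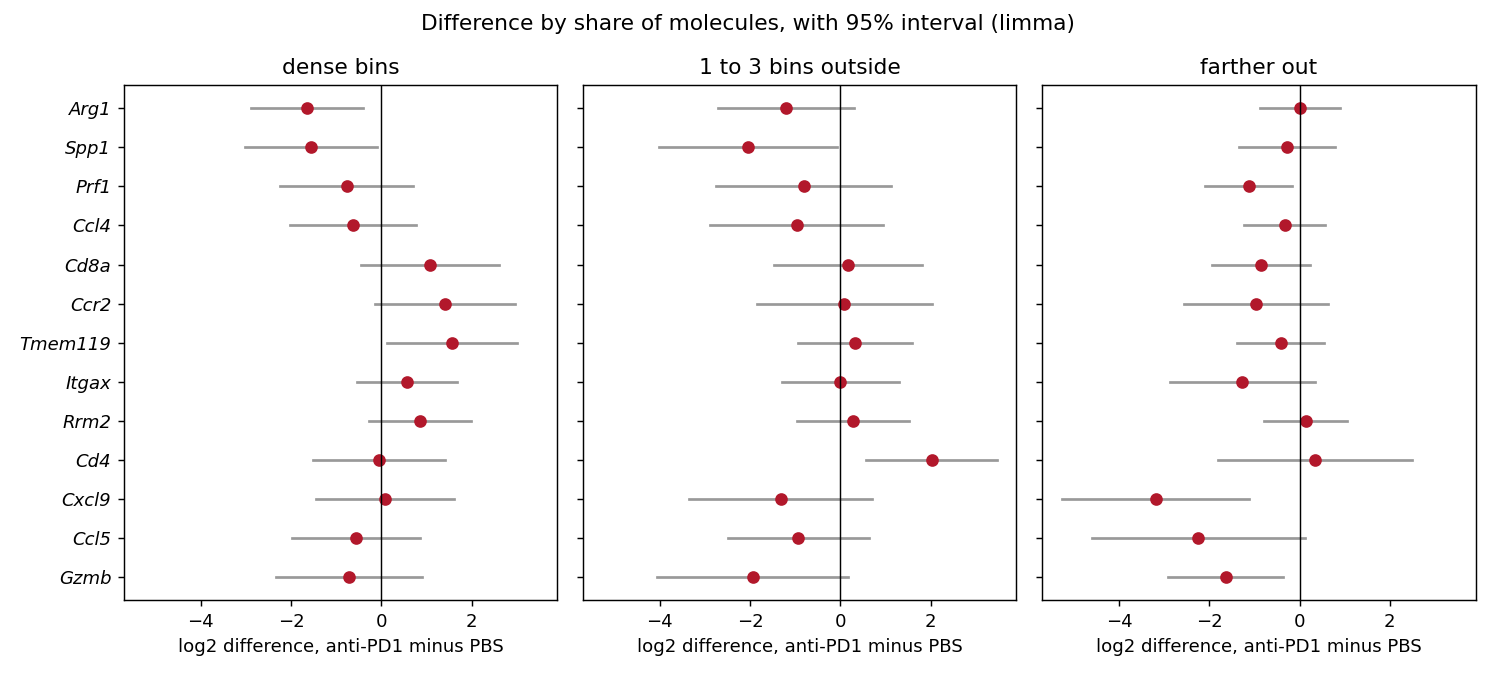
Log2 difference of the share (anti-PD1 minus PBS, x axis) for 13 genes in dense bins, 1 to 3 bins outside and farther out; points are limma estimates and bars 95% intervals. Arg1 lies at -1.65, -1.20 and 0.00 in the 3 compartments, Cd4 at -0.05, 2.02 and 0.35, and Cxcl9 at 0.08, -1.33 and -3.19.

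In the margin, 1 to 3 bins outside the dense bins, no gene passed by share (96 tested, 0 with limma, 2 at unadjusted p under 0.05, 0 with voom) or by density (1 at unadjusted p under 0.05). Without overlap, 10.4% of the genes were higher and 17.7% lower by share, and 14.6% each way by density. On both scales alike 5.21% were higher and 8.33% lower, or 13.5% either way. With 1 section left out, limma called Cd4 (without PBS section 1), Spp1 (without PBS section 2), 6 lower genes (without anti-PD1 section 1) and Ccl22 and Spp1 (without anti-PD1 section 2). The margin was smaller in tissue and in molecules than the dense territory, with 536 and 315 bins in the PBS sections and 382 and 428 in the anti-PD1 sections, and more of it lay in gaps with PBS, as given above.

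The gene with the largest upward difference there was Cd4. It stood at 7170 and 2001 CPM in the margin with PBS and at 13980 and 16830 with anti-PD1, higher in both sections (log2 2.02, SE 0.668, 95% interval 0.58 to 3.46, limma, unadjusted p = 0.00978, adjusted p = 0.885). It was 1.60 over the outer margin, which leaves out gaps and image edge, and 1.10 without PBS section 2. Cd4 is the coreceptor of helper T cells, but its transcripts here were not placed like those of Cd3d. Only 3.93 and 22.4% of Cd4 molecules lay inside dense bins in the PBS sections and 7.84 and 8.57% in the anti-PD1 sections, while its share in tissue farther out was 48620 and 13450 with PBS and 55850 and 18990 with anti-PD1. In the margin Cd3d stood at 81.2 and 134 with PBS and at 156 and 59.5 with anti-PD1, with overlap. Cd4 is therefore not read as a T cell marker here.

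Other genes higher in the margin without overlap were Cd47, Csf1r, Fas and Havcr2. Cd47, the signal that restrains phagocytes, stood at 54130 and 31280 with PBS and at 59620 and 100900 with anti-PD1 (log2 0.91). Csf1r, the growth factor receptor of microglia and macrophages, stood at 26200 and 14460 with PBS and at 30400 and 33750 with anti-PD1 (0.72). Fas, the death receptor, had a log2 difference of 0.72, and Havcr2 of 0.65. PBS section 2 was the lowest section for each of the 4. Over the outer margin Cd47 stood at 88150 and 39780 with PBS and at 78420 and 116000 with anti-PD1 (0.69), and Csf1r at 38370 and 22070 with PBS and 32970 and 40330 with anti-PD1 (0.33), so there both overlapped.

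Genes lower in the margin without overlap included Arg1, Cd14, Ccl3, Ccl4 and Prf1, as well as Birc5, whose level there is bounded by the definition of dense bins. Arg1 stood at 1457 and 1736 CPM with PBS and at 724 and 657 with anti-PD1 (log2 -1.20, SE 0.696, limma, adjusted p = 0.885). Over the outer margin this became -0.61 (SE 0.925), with 300 and 712 with PBS and 516 and 178 with anti-PD1, so there the sections overlapped. Cd14, the lipopolysaccharide coreceptor of monocytes, stood at 1527 and 962 with PBS and at 562 and 592 with anti-PD1 (-1.07). Of the 8 cytotoxic and NK genes, 7 had a negative difference in the margin, against 55 of all 96 genes, with a median of -0.73 against -0.12. Of the 8, Gzmb and Prf1 were lower without overlap by share, against 17.7% of all genes.

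The ratio of dense bins to margin was compared within each section, so that each section gave 1 value per gene. With limma 0 of 96 genes passed (lowest adjusted p = 0.390) and 7 had an unadjusted p under 0.05. Birc5 (difference 1.26) and Mki67 (1.02) are among these 7 and among the genes with a higher ratio counted below. Their molecules define the dense bins, so their ratios are a description and not a test. In this comparison 34.4% of genes had a higher ratio without overlap and 8.33% a lower one, and the median log2 difference was 0.39. Gpnmb stood at a log2 ratio of 3.93 and 3.95 with PBS and of 5.11 and 5.14 with anti-PD1, with pairs far closer than the groups (difference 1.18, SE 0.331, limma, adjusted p = 0.390). Over the outer margin the difference for Gpnmb was 0.45. For Cd8a the log2 ratio was 1.34 and 0.38 with PBS and 1.37 and 2.54 with anti-PD1 (difference 1.10, SE 0.614, limma, adjusted p = 0.551). Anti-PD1 section 1 lay next to PBS section 1. For Arg1 it was 2.24 and 2.43 with PBS and 1.92 and 2.22 with anti-PD1, a small difference of -0.26 (SE 0.439). With 1 section left out, limma called the ratio of Cd4 (without PBS section 1) or Tmem119 (without PBS section 2).

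In tissue 4 or more bins from any dense bin, cytotoxic and chemokine genes were lower in both anti-PD1 sections, with Cxcl9 the furthest apart, and Arg1 overlapped. No gene passed by share (97 tested, 0 with limma, 4 at unadjusted p under 0.05, 0 with voom) or by density (0 with limma, 3 at unadjusted p under 0.05). Without overlap, 34% of the genes were lower and 3.09% higher with anti-PD1 by share, and 32% were lower and 3.09% higher by density. On both scales alike 26.8% were lower and 2.06% higher, or 28.9% either way. The median log2 difference over all genes was -0.29 by share and -0.36 by density. All 8 cytotoxic and NK genes were lower without overlap by share, with a median of -1.21, as were 7 of 8 chemokine genes, with a median of -0.79. By density 6 of 8 and 5 of 8 did not overlap.

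Cxcl9 had the largest difference farther out. It numbered 205 and 1134 molecules there with PBS and 63 and 40 with anti-PD1, or 339 and 1639 CPM against 87.4 and 74.9. PBS section 2 was the highest, and PBS section 1 was still well above the anti-PD1 pair (log2 -3.19, SE 0.797, 95% interval -5.26 to -1.12, limma, unadjusted p = 0.0112, adjusted p = 0.628). Cxcl10 stood at 3727 and 16570 with PBS and at 2556 and 1092 with anti-PD1 (-2.23). Ccl5 stood at 932 and 5650 with PBS and at 570 and 414 with anti-PD1 (-2.24). For Cxcl9, Cxcl10 and Ccl5 alike, PBS section 1 lay nearer to anti-PD1 section 1 than to PBS section 2.

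Gzmb stood at 137 and 252 CPM farther out with PBS and at 72.1 and 48.7 with anti-PD1 (log2 -1.63, SE 0.490, limma, unadjusted p = 0.0220, adjusted p = 0.628). Prf1 stood at 162 and 140 with PBS and at 69.3 and 67.4 with anti-PD1, with 2 close pairs (-1.13, SE 0.370, limma, unadjusted p = 0.0297, adjusted p = 0.628). Cd8a stood at 411 and 638 with PBS and at 354 and 225 with anti-PD1 (-0.86), and Pdcd1 at 200 and 458 with PBS and 154 and 133 with anti-PD1 (-1.08). These values rest on few molecules, 26 to 174 per section for Gzmb and 36 to 98 for Prf1. Lag3, which is not read as a T cell marker here, stood at 3364 and 5139 with PBS and at 1715 and 2572 with anti-PD1 (-0.99).

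How far these differences reach depended on PBS section 2. Ptprc, which encodes the leukocyte antigen CD45, stood at 1882 and 4966 farther out with PBS and at 1681 and 1517 with anti-PD1. PBS section 2 was also the highest for Cd74, the chaperone of MHC class II, at 129500 against 29990 in PBS section 1 and 49190 and 15810 with anti-PD1. Without PBS section 1, 21 genes were called lower, and without PBS section 2 only Cxcl9 was called; without either anti-PD1 section none was. The part of PBS section 2 in these differences beyond this was not tested. Mrc1 was the gene in this tissue with the largest upward difference by the naming rule, at 535 and 549 with PBS and 767 and 716 with anti-PD1 (0.45, SE 0.304, limma, adjusted p = 0.672).

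The anti-PD1 sections differed from each other in a set of immune genes. Wide gaps were not particular to this pair. Of the 98 genes tested in dense bins, 26 lay more than 1 log2 unit apart between the anti-PD1 sections and 30 between the PBS sections. In dense bins Ctla4 stood at 419 CPM in section 1 and 104 in section 2, a 4.03-fold gap, while the PBS sections stood at 413 and 240. Section 1 was more than 3-fold above section 2 also for Gzmb (3.97-fold), Ccl22 (3.95-fold), Klrb1c (3.32-fold), Cxcl9 and Ccl5 (both 3.21-fold) and Ccr7 (3.17-fold). Ccr7 guides lymphocytes and dendritic cells to lymphoid tissue, Ccl22 is a chemokine of mature dendritic cells and Klrb1c encodes the NK cell marker NK1.1. Section 2 was furthest above section 1 for Tox (2.36-fold), Ifnb1 (2.14-fold), Vegfa (2.08-fold) and the DNA methyltransferase genes Dnmt3b (1.87-fold), Dnmt3a (1.85-fold) and Dnmt1 (1.81-fold), followed by Rrm2 (1.73-fold) and Birc5 (1.67-fold). Tox, a factor of exhausted T cells, was less dense in dense bins than in the margin in all 4 sections. In anti-PD1 sections 1 and 2 it stood at 6.24 and 14.7 CPM in dense bins. Farther out it stood at 626 and 612 with PBS and at 236 and 873 with anti-PD1. Tox is therefore not read as a T cell marker here. In dense bins it differed more between the PBS sections (log2 3.03), and over whole sections it exceeded the false-positive percentile in 2 of 4. Ccl22 also exceeded it in 2 of 4. It numbered 1405 molecules in anti-PD1 section 1 and 284 in section 2, below the percentile of 313 there. For Ctla4, Ccl22 and Ccr7 the mean of the anti-PD1 pair hides this gap: the log2 differences between groups were -0.59, 0.15 and 0.11, with no call. These genes were chosen after their values were seen.

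**Figure D5:**
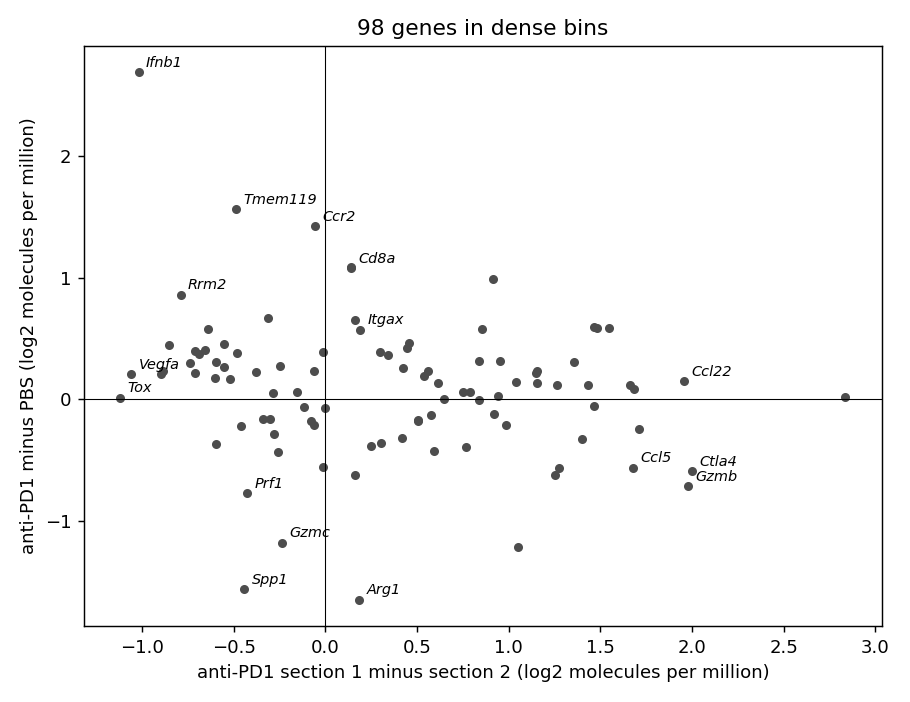
Each of 98 genes in dense bins by its gap between the anti-PD1 sections (section 1 minus section 2, x axis, log2 CPM) and its difference between groups (anti-PD1 minus PBS, y axis, log2 CPM). Arg1, at -1.65, and Ccr2, at 1.42, lie near the vertical line where both anti-PD1 sections are equal, whereas Ccl22 lies to the right, at 1.96, with a difference between groups of 0.15.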

How the data were processed

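Per the labels, RNA was imaged with the Resolve platform of single-molecule in situ hybridization. Each deposited file lists 1 called molecule per line, with other units than expression values: x, y and z positions in pixels and a target name. Seurat 4.2.0 appears in the submitters' processing notes, with no role. For spot calling, its settings, the pixel size and the section level, the answer is not given in the sources used here. Titles aPD1 and aPD2 were read as anti-PD1 sections 1 and 2.

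Molecules were tallied per section and per bin of 360 pixels (tissue from 20 molecules, dense from 100 Mki67 plus Birc5 molecules), leaving out names that start with FP. Distance outside is the chessboard distance in bins. A gene was tested where its mean over the sections reached 10 molecules in the compartment. Values were log2(value + 1) of molecules per 1000000 (CPM) or per 100 bins, so fold changes of low genes are understated. They were fitted with limma 3.58.1 (R 4.3.3, lmFit and eBayes with trend): 8 sections and 4 group means for whole sections, and the 4 PBS and anti-PD1 sections for compartments, which leaves 2 residual degrees of freedom. Adjusted p-values are Benjamini-Hochberg values over all genes tested, two-sided, threshold 0.05. Single measures used exact permutation. Python 3.11.15, numpy 2.4.6, pandas 2.3.3 and scipy 1.17.1 were used. The fits were tested on simulated data.

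The sections, gene lists and tests were chosen with earlier results of these data known. Named genes are those called, up to 6 each way per compartment with the largest difference by share among genes that do not overlap on both scales and have a mean of at least 50 molecules, and a set list; others were chosen after their values were seen. Alternatives covered the pseudocount, the filter, scaling, voom, the trend, bin size, limits of tissue and dense bins, distance, the sections in the fit, the replicate block and each section left out. Some genes of the panel are not reported here.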

Additional observations from a re-analysis of the deposited data

How the results depend on the processing

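Alternatives were run for the genes picked by the naming rule, in the compartments where they were picked, and for a few ratios, and none of these reversed; other genes named in the report were not rerun. Among the summary values 1 reversed, the share of tissue that is dense, which was 3.23 percentage points higher with anti-PD1 and became -3.08 without PBS section 1 and -1.30 without anti-PD1 section 2 (range over left-out sections -3.08 to 9.54). The whole-section count by share, 1, was 0 with a pseudocount of 10, a mean of at least 50 molecules, no trend, the 4 sections alone, and, chosen after seeing the data, without the richest Ifnb1 bins and with genes above the false-positive level only; left-out sections gave 0 to 1. By density it was 0, with 0 to 1 over left-out sections. In dense bins the count by density, 1, was 0 with a pseudocount of 10, a mean of at least 50, no trend, bins of 180 pixels and dense bins from 200 molecules, and 0 to 2 over left-out sections; by share it was 0, with 0 to 2. With genes above the false-positive level the count by density was 1, which was Tmem119 and not Ifnb1. In the margin left-out sections gave 1 to 6 calls by share, farther out 0 to 21, and in the dense to margin ratio 0 to 1; dense bins from 200 molecules gave 2 calls in that ratio. The cause was not tested.

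Replicate numbers come from the titles and were not taken to pair sections: deviations of same-numbered sections correlated at -0.316 over whole sections and -0.285 in dense bins. With the replicate block the counts were 1 by share and 1 by density for whole sections, 0 and 1 in dense bins, and 0 elsewhere. The crossed replicate block, added after seeing the data, gave 0 and 0 calls for whole sections, 0 and 0 in dense bins, 8 and 2 in the margin, 0 and 6 farther out and 4 in the ratio.

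Among the genes described, depth limited Ifnb1, Xcr1 and Cd3d, which exceeded the false-positive codes' 90th percentile in at most 1 section. Ccl22, Klrd1 and Tox exceeded it in 2 sections. With 2 sections a group, intervals of single genes were wide, and a difference short of the threshold does not show that the groups were alike.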

Other observations

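Genes of innate sensing and of costimulation did not separate the groups clearly in dense bins. Tlr9, the receptor for CpG DNA, stood at 556 and 233 CPM (molecules per 1000000 gene molecules) with PBS and at 721 and 399 with anti-PD1, with overlap. Icos, a costimulatory receptor of activated T cells, stood at 543 and 207 with PBS and at 559 and 500 with anti-PD1, and Cd80, a ligand of CD28, at 180 and 111 with PBS and 206 and 167 with anti-PD1; both overlapped by share and were higher without overlap by density. Of the 8 TLR and NF-kB genes, Il12a was higher and Nfkbia lower without overlap by share (median log2 difference 0.22 against 0.13 over all 98 genes, of which 13.3% were higher and 8.16% lower), and none of the 6 costimulatory genes tested was without overlap by share (median 0.31). Il12a, a subunit of interleukin-12, stood at 46.5 and 53.99 with PBS and at 81.7 and 59.2 with anti-PD1 (log2 0.46, SE 0.695, limma, adjusted p = 0.985).

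Vegfa, the angiogenic growth factor, stood at 23360 and 13130 in dense bins with PBS and at 14000 and 29160 with anti-PD1, so each group held a high and a low section. Csf1, the macrophage growth factor, was higher with anti-PD1 without overlap, at 12300 and 9546 with PBS and 14150 and 14290 with anti-PD1 (log2 0.39, SE 0.476). No test was passed by any of these genes.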
